A study of Mus musculus with 13 samples.

Results

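The keratin gene clusters comprised the 53 protein-coding mouse genes named Krt followed by a digit, out of 21883 protein-coding genes, with the keratin-associated protein genes (Krtap) left out. Of these, 27 lay on chromosome 11, where the type I genes are, and 26 on chromosome 15, where the type II genes and the type I gene Krt18 are. Chromatin immunoprecipitation with sequencing was analysed with antibodies against STAG2, STAG1 and CTCF in quiescent and in proliferating NU1 cells. Each of the 6 groups held 2 libraries called biological replicates, which gives 12 lists of peaks. NU1 is a line of normal mouse urothelial cells that became immortal on its own during passaging, and its genotype was labelled WT. Quiescent cells had been grown to confluence and then kept with 1 uM rosiglitazone, an agonist of PPAR gamma, and 0.5 uM erlotinib, an EGF receptor inhibitor. Confluence, rosiglitazone and erlotinib therefore cannot be told apart here. Proliferating cells received neither drug, and all cells grew in the same medium with EGF, insulin, transferrin, hydrocortisone and cholera toxin. All results come from this 1 line, so p-values measure the spread between its libraries.

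Keratins form intermediate filaments as obligate pairs of a type I and a type II chain, and epithelia differ in the pairs they use. In the urothelium, Krt5 and Krt14 mark basal cells, Krt7, Krt8, Krt18 and Krt19 are keratins of simple epithelia, and Krt20 marks the terminally differentiated umbrella cells. STAG1 and STAG2 replace each other as a subunit of cohesin, the ring that extrudes chromatin loops, and CTCF is the DNA-binding protein at which extrusion often halts.

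Peaks were collected over each cluster with 50 kb on each side. The type I window, chr11:99182761-100319951, was 1.14 Mb long and ran from Krt222 to Krt42. It held 67 protein-coding genes, of which 23 were Krtap genes in a block between Krt40 and Krt33a. The type II window, chr15:101298315-102082026, was 0.784 Mb long, ran from Krt80 to Krt18, and held 28 protein-coding genes. Peaks of the 12 lists that shared at least 1 bp were joined into sites, which gave 137 sites in the type I window and 153 in the type II window, 290 of 114651 in the genome. Coordinates are those of mm10 throughout.

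The lists held between 34281 and 71757 peaks, and their depth in reads is unknown. Peaks locate protein on DNA and do not measure expression, so the urothelial label could be compared only with gene ends that carried peaks. STAG2 peaks marked 9 of 14 urothelial marker genes in quiescent and 11 in proliferating cells, but also all 4 neuronal markers and 3 of 6 fibroblast markers in both states, so these counts do not identify the cell type. Of 4 immune markers, 1 was marked. Over all protein-coding genes the share marked was 54.3% in quiescent and 54.6% in proliferating cells.

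**Figure D1:**
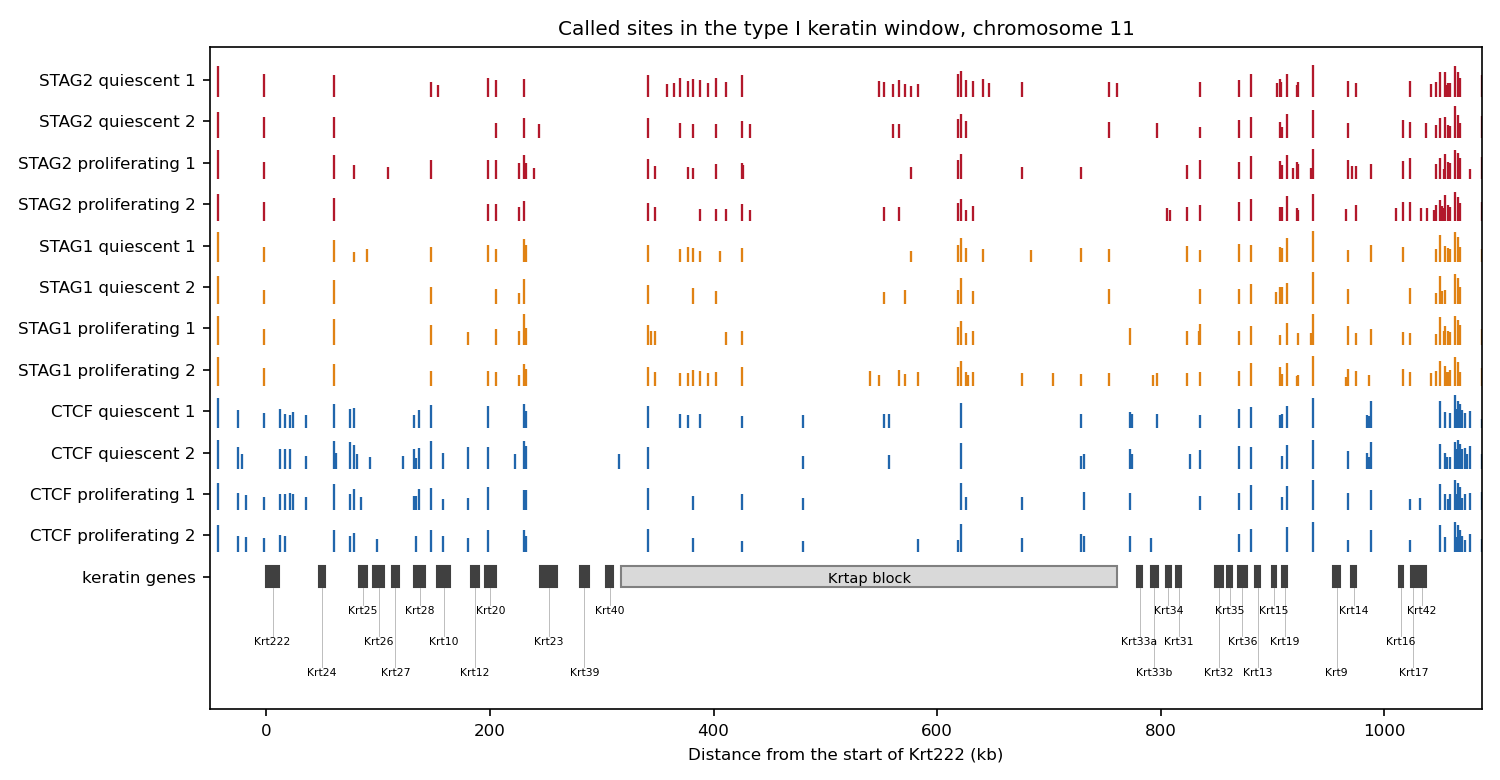
Sites in the type I keratin window on chromosome 11 by library, with the distance from the start of Krt222 in kb on the x axis; tick height grows with the log2 of the authors' fold enrichment. The 4 libraries of an antibody are adjacent, quiescent above proliferating, keratin genes are dark boxes and the Krtap block is grey; 14 of 137 sites run through all 12 libraries.

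**Figure D2:**
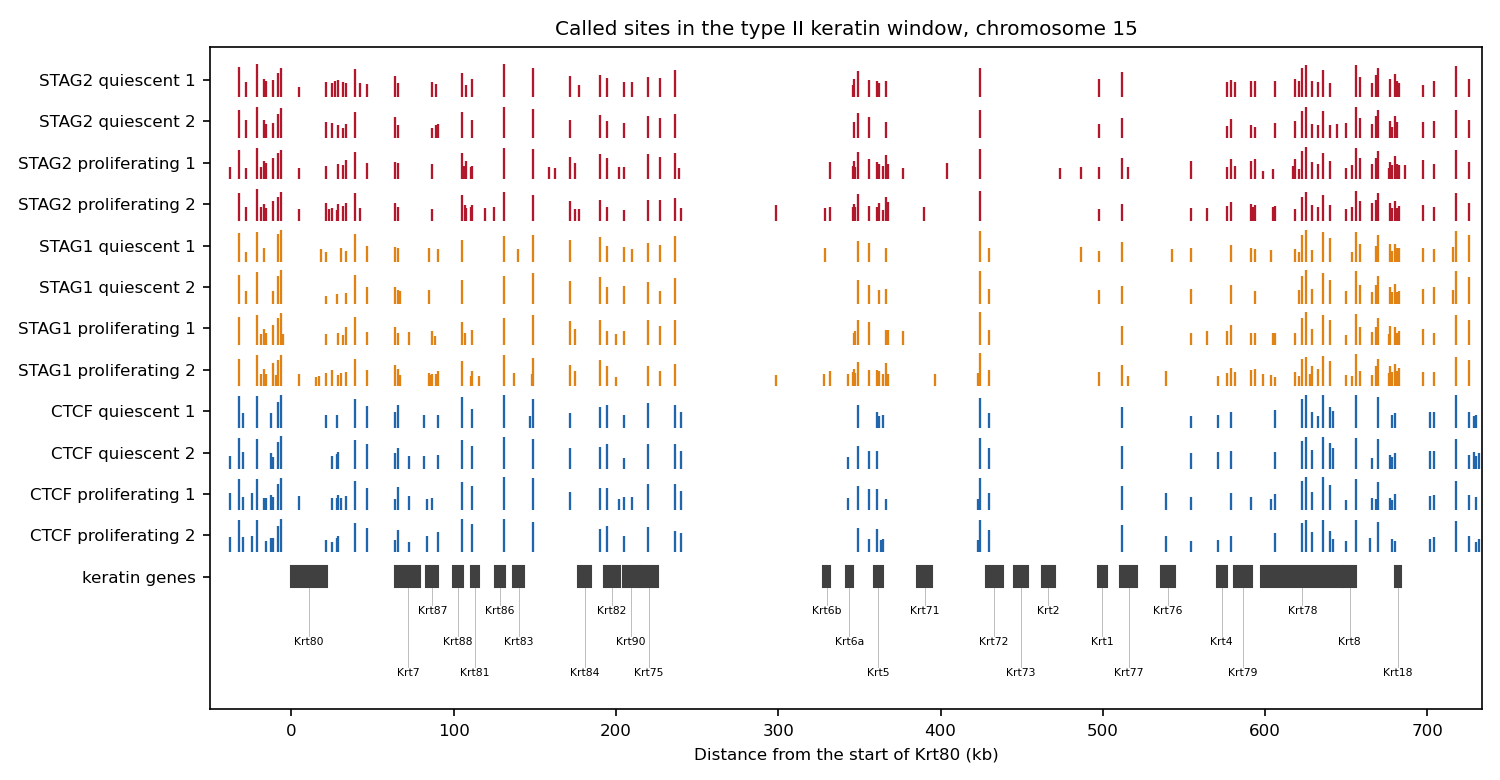
Sites in the type II keratin window on chromosome 15, drawn in the same way from the start of Krt80. The window is shorter but holds 153 sites, of which 29 run through all 12 libraries, and it shows wide stretches with few ticks between Krt75 and Krt6b and from Krt71 to Krt2.

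Promoters of the urothelial keratins in the RefSeq table are printed whether or not they overlapped a site. Of these 6, 5 overlapped a called site, while the libraries behind that site differed from gene to gene. Each run covers 250 bases before and 50 bases after the annotated start on the gene's strand, from RefSeq, GRCm38.p6, the build of mm10. Capitals mark matches on either strand to the TATA box letters TATAAA, to the GC box letters GGGCGG, or, in Krt18, to a loosened core of the CTCF motif. Krt19 is not among the printed entries.
Krt20 promoter, chr11:99438104-99438403, minus strand: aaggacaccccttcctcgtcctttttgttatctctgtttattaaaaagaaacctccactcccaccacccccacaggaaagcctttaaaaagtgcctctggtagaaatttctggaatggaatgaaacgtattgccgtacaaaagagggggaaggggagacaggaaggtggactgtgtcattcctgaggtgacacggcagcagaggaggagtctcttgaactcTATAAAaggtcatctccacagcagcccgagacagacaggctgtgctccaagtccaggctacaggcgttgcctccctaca
Krt7 promoter, chr15:101412153-101412452, plus strand: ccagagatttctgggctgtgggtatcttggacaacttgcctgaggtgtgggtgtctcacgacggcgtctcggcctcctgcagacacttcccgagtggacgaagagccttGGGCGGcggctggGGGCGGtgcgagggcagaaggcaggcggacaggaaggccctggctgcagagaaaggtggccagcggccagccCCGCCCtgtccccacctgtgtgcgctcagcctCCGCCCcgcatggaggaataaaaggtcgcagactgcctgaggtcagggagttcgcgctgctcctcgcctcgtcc
Krt8 promoter, chr15:102004293-102004592, minus strand: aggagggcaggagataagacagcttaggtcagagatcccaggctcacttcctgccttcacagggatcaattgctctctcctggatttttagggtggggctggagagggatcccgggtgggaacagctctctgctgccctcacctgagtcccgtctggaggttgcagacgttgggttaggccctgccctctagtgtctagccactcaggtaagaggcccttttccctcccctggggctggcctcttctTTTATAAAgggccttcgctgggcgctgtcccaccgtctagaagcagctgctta
Krt18 promoter, chr15:102027966-102028265, plus strand: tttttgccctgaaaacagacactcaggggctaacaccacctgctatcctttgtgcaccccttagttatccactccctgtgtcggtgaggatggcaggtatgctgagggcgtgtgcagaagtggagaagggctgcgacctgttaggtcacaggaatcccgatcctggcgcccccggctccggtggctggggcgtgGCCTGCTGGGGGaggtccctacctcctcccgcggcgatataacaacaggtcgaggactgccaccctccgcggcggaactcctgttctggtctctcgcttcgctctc
Krt5 promoter, chr15:101712856-101713155, minus strand: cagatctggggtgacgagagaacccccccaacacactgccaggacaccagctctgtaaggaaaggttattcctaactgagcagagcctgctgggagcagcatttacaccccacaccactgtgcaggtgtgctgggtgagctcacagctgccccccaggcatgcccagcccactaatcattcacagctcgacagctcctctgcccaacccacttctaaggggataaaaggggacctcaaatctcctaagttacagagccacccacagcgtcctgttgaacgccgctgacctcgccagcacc
Krt14 promoter, chr11:100205981-100206280, minus strand: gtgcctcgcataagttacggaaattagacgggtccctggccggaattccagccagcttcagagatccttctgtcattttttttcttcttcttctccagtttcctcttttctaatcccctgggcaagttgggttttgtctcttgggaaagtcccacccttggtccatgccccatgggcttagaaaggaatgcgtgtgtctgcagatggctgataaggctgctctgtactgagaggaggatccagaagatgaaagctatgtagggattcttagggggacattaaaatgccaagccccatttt

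The Krt7, Krt8 and Krt18 promoters each overlapped a site called in all 12 libraries. The Krt20 promoter overlapped a site of all 8 STAG libraries and no CTCF library. The Krt5 promoter overlapped a site of 5 libraries, and the Krt14 entry, whose start lies inside the gene body of the annotation, overlapped none. Over the whole family, 36 of the 53 genes had 37 promoters in the table, of which 10 overlapped a site. The share of all 32851 promoters in the table that overlapped a site was not computed. The promoter counts given here and above therefore have no background, and whether they are high or low is unknown.

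The core of the CTCF motif, taken over 12 bases with 8 of them fixed, was in 0 of the 37 keratin promoters, against 2.43% of 32851 promoters in the table. A looser core with 7 fixed bases was in 1, that of Krt18, on the minus strand of the gene, against 8.61% of all promoters. TATAAA was in 19 keratin promoters, or 51.4%, against 13.6% of all. In 12 of them it stood on the gene's strand 24 to 32 bases before the start, as in Krt20. In Krt8 the letters TTTATAAA hold a match on each strand at the start itself. GGGCGG was in 2 keratin promoters, Krt7 with 4 matches and Krt75, against 35.7% of all promoters, and the AP-1 letters TGANTCA were in 2, both entries of Krt13, against 7.81%. The TATA, GC and AP-1 letters were chosen after the sites had been seen, matches are a description only, and keratin promoters of neighbouring paralogs resemble each other.

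Krt8 (chr15:101996711-102004342), the type II keratin of simple epithelia, carried the broadest of the urothelial sites. That site, chr15:102002792-102005934, lay over its start, was 3143 bp long and was called in all 12 libraries. Its fold enrichment over background, the authors' own value for each peak, was 56.1 and 48.6 for STAG2 in quiescent cells, against 54.0 and 39.7 in proliferating cells. For STAG1 it was 46.5 and 57.6 in quiescent cells, against 47.1 and 58.4 in proliferating cells. For CTCF it was 67.9 and 50.2 in quiescent cells, against 52.9 and 54.1 in proliferating cells. The values of the states overlapped for every antibody, and the peak stood on average at the 98.0th percentile of its own list. Fold enrichments serve only to describe and rank peaks within a list and were not compared as a change. Upstream, chr15:102006196-102006997 was called in all 8 STAG libraries and no CTCF library. Inside the gene, chr15:102001260-102002191 was called for STAG2 in both proliferating and neither quiescent library.

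Krt18 (chr15:102028216-102032026), the type I partner of Krt8, lies beside it in the type II cluster. Its start site, chr15:102027513-102028966, was called in all 12 libraries, with STAG2 fold enrichments of 17.5 and 15.0 in quiescent cells, against 20.01 and 11.5 in proliferating cells. Further into the gene, chr15:102029394-102030465 was called in all 8 STAG libraries and no CTCF library. STAG2 had 4 and 4 peaks within 5 kb of Krt18 in quiescent cells, against 7 and 6 in proliferating cells, so the states did not overlap. STAG1 had 5 and 5 in quiescent cells, against 5 and 6 in proliferating cells, which overlapped. The whole STAG2 lists did not overlap either, with 38407 and 34281 peaks in quiescent cells, against 47295 and 45582 in proliferating cells. How many of all genes show such counts without overlap was not computed, here or for the keratins below.

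Krt7 (chr15:101412403-101427806), a type II keratin of ductal and urinary epithelia, had 2 sites called in all 12 libraries. The first, chr15:101410695-101413060, covered the start, with STAG2 fold enrichments of 13.6 and 13.7 in quiescent cells, against 8.80 and 8.80 in proliferating cells. The second, chr15:101413821-101414478, lay in the gene body, and its highest values were those of CTCF, 17.3 and 13.6 in quiescent cells, against 18.3 and 15.5 in proliferating cells. Between Krt7 and Krt87, a CTCF site at chr15:101429831-101430346 was called in both quiescent libraries and neither proliferating one. A CTCF site inside Krt87, chr15:101431643-101432134, was called in both proliferating libraries and neither quiescent one.

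Krt19 (chr11:100140810-100145926), the small type I keratin of simple and basal epithelia, had 7 sites within 5 kb, and 4 of these were in a single library. The site at its outer end, chr11:100144748-100146583, was called in all 12 libraries, with STAG2 fold enrichments of 16.9 and 21.0 in quiescent cells, against 20.3 and 23.9 in proliferating cells. STAG1 had 4 and 4 peaks within 5 kb in quiescent cells, against 2 and 3 in proliferating cells. CTCF had 3 and 3 in quiescent cells, against 2 and 1 in proliferating cells. Both therefore had more calls near Krt19 in quiescence with no overlap between states, while STAG2, with 4 and 3 peaks in quiescent and 5 and 3 in proliferating cells, overlapped.

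Krt20 (chr11:99428385-99438153), the umbrella cell keratin, had 2 sites. The promoter site, chr11:99437702-99438305, had STAG2 fold enrichments of 8.16 and 6.34 in quiescent cells, against 11.8 and 8.16 in proliferating cells. STAG1 stood there at 5.14 and 6.0 in quiescent cells, against 7.55 and 6.35 in proliferating cells, and no CTCF library had a peak. At the other site, chr11:99430596-99431198 in the gene body, all 4 CTCF libraries had a peak, with 3 STAG2 and 2 STAG1 libraries.

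Krt5 (chr15:101707069-101712905), the basal type II keratin, had 7 sites within 5 kb, none of them in all 12 libraries. STAG2 had 5 and 2 peaks near it in quiescent cells, against 7 and 6 in proliferating cells, with no overlap between the states. STAG1 had 2 and 5 in quiescent cells, against 3 and 7 in proliferating cells. CTCF had 3 and 2 in quiescent cells, against 3 and 4 in proliferating cells. STAG1 and CTCF thus overlapped between the states. The whole STAG2 lists were also shorter in quiescent cells, without overlap, as given for Krt18.

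Upstream of the Krt5 start, chr15:101713577-101715513 was called in all 8 STAG libraries and in 1 CTCF library. STAG2 stood there at a fold enrichment of 7.33 and 7.76 in quiescent cells, against 21.3 and 21.1 in proliferating cells. The next site outward, chr15:101715702-101716279, was called in both proliferating libraries of STAG2 and of STAG1, and in no quiescent or CTCF library. At the start itself, chr15:101712207-101713351 was called for STAG2 in both proliferating and neither quiescent library. Below the gene, chr15:101704016-101704752 was called in 11 libraries.

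Krt14 (chr11:100203162-100207510), the type I partner of Krt5, had 4 sites. The site called in most libraries, chr11:100199985-100200582, lay 2579 bases from the gene and was called in 10. STAG2 was called there in both quiescent libraries, at 7.17 and 6.42, and in 1 proliferating library, at 11.3. STAG1 was called there in all 4 libraries and CTCF in 3. The site at the outer end of the gene, chr11:100207164-100207878, was called for STAG2 in 1 quiescent library, at a fold enrichment of 5.49. It was called for STAG2 in both proliferating libraries, at 5.49 and 7.49. STAG1 was called there in no quiescent library and in both proliferating libraries, at 4.49 and 6.99, and CTCF in none. STAG1 had 1 and 1 peaks within 5 kb of Krt14 in quiescent cells, against 2 and 3 in proliferating cells, with no overlap. The whole STAG1 lists did not overlap either, with 35594 and 36680 peaks in quiescent cells, against 38857 and 50468 in proliferating cells.

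A gene was counted as occupied in a group when both libraries had a peak within 1 kb of either gene end. STAG2 occupied 16 of the 53 keratin genes in quiescent cells, or 30.2%, against 54.3% of all protein-coding genes, and 21 in proliferating cells, or 39.6%, against 54.6%. STAG1 occupied 12 in quiescent cells, or 22.6%, against 47.0% of all genes, and 16 in proliferating cells, or 30.2%, against 48.7%. CTCF occupied 13 in quiescent cells, or 24.5%, against 46.6% of all genes, and 12 in proliferating cells, or 22.6%, against 50.1%. The keratin share lay below the background in each of the 6 groups, a difference that was not tested. With lists of 20000 peaks, STAG2 occupied 7 keratins in quiescent and 12 in proliferating cells, and the share of all genes was not computed for these lists. Krt36, Krt19, Krt7, Krt88, Krt86, Krt8 and Krt18 were occupied in all 6 groups, or 7 of 53 (13.2%), against 36.3% of all genes. No library had a peak at either end of 18 keratins, or 34.0%, against 32.0% of all genes, a share near the background. Between the clusters, STAG2 occupied 3 of 27 genes of chromosome 11 in quiescent and 6 in proliferating cells, against 13 and 15 of the 26 on chromosome 15.

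**Figure D3:**
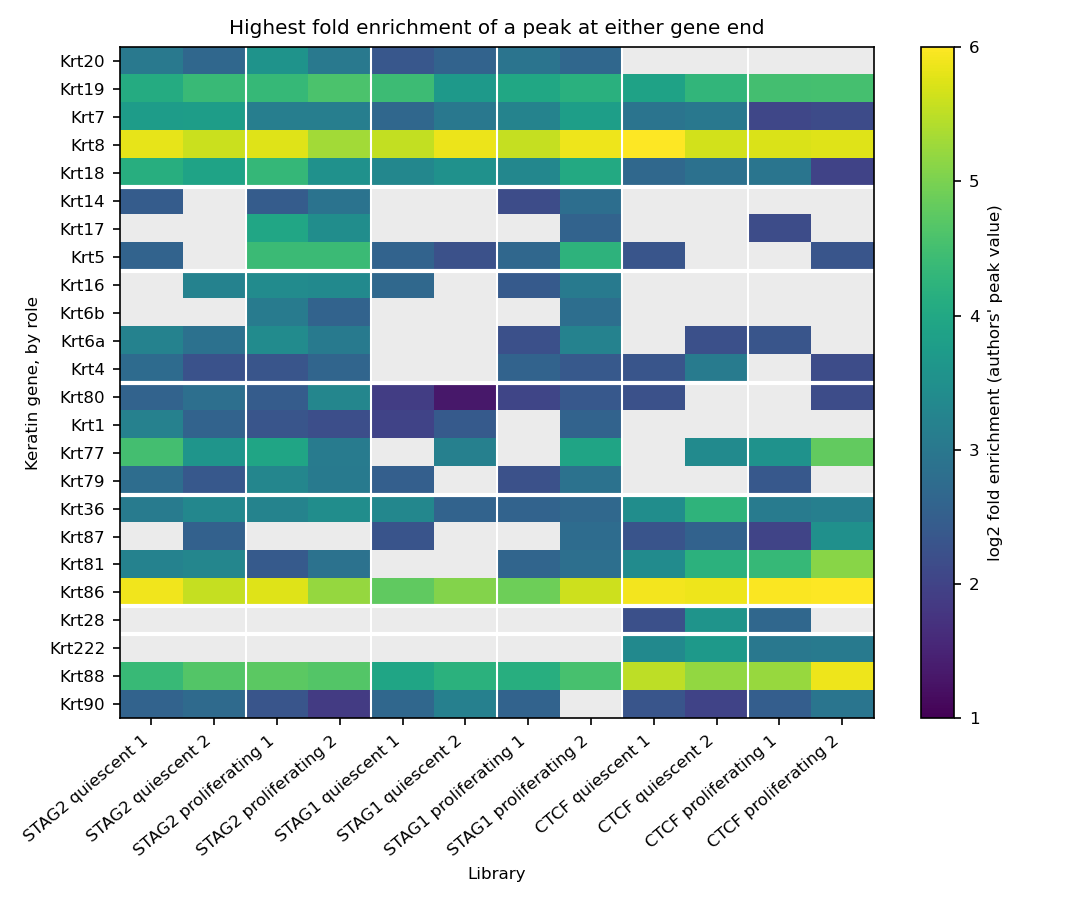
Highest fold enrichment (log2, the authors' peak value) of a peak within 1 kb of either end of each keratin gene, for the 24 genes occupied in at least 1 of 6 groups, by library; grey cells have no peak. Rows are grouped by role from simple urothelial keratins at the top through basal, wound, epidermal, hair shaft and inner root sheath keratins to the others; Krt8 and Krt86 are bright in every library, and Krt14, Krt17 and Krt6b have mostly grey cells in quiescent libraries.

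By role, all 5 simple keratins of the urothelium were occupied by STAG2 and by STAG1 in both states, and 4 of them, all but Krt20, by CTCF in both states. Of the 4 basal keratins, STAG2 occupied 0 in quiescent cells and 3 in proliferating cells, Krt5, Krt14 and Krt17, the last a basal and wound-induced type I keratin. STAG1 occupied 1 in quiescent cells, Krt5, and 2 in proliferating cells, Krt5 and Krt14, while CTCF occupied 0 in both. Krt17 had no STAG2 peak within 1 kb of its ends in quiescent libraries and fold enrichments of 15.5 and 11.0 in proliferating ones. The basal count rested on the window: with 2 kb around gene ends STAG2 occupied 2 of 4 in quiescent cells, Krt5 and Krt17, and 3 in proliferating cells, and over the gene with 5 kb it occupied 4 in both. The simple keratin counts moved with the lists. With 20000 peaks CTCF occupied 2 of 5 in both states, Krt8 and Krt19. STAG2 then occupied 4 in quiescent and 5 in proliferating cells, and STAG1 4 in both. At -log10 q of at least 5, CTCF occupied 4 in quiescent and 3 in proliferating cells. Under these alternatives the share of all genes was not computed.

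Of 7 keratins of wounds and stratified mucosa, STAG2 occupied 2 in quiescent cells, Krt4 and Krt6a, and 4 in proliferating cells, with Krt6b and Krt16 added. Krt6a, Krt6b and Krt16 are induced in activated keratinocytes and Krt4 is a keratin of stratified mucosa. Krt6b carried STAG2 at 8.48 and 5.99 in proliferating libraries and in no quiescent one, and STAG1 in 1 proliferating library. For Krt16, STAG2 was called in 1 quiescent library, at 9.33, and in both proliferating ones, at 10.7 and 10.3. Krt6a and Krt6b are close copies, as are Krt16, Krt14 and Krt17, and how far reads were shared between copies was not measured, so their separate calls are uncertain.

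Among 7 keratins of epidermal differentiation, STAG2 occupied 4 in both states, Krt1, Krt77, Krt79 and Krt80. Krt1, which pairs with Krt10 above the basal layer, carried STAG2 at 9.20 and 6.0 in quiescent libraries, against 5.00 and 4.60 in proliferating ones, and no CTCF. Krt77 carried STAG2 at 22.7 and 12.2 in quiescent libraries, against 15.3 and 8.50 in proliferating ones. Krt2 and Krt9, of the upper epidermis and of footpads, had no peak at their ends in any library.

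Of 15 hair shaft keratins, STAG2 occupied 3 in both states, Krt36, Krt81 and Krt86, and CTCF occupied these and Krt87. Krt86 stood out with STAG2 fold enrichments of 59.4 and 46.9 in quiescent libraries, against 53.9 and 36.9 in proliferating ones, and CTCF values of 60.4 and 58.9 in quiescent libraries, against 62.9 and 75.3 in proliferating ones. In Krt81, CTCF stood at 10.6 and 18.6 in quiescent libraries, against 20.4 and 34.6 in proliferating ones, and STAG1 was called in both proliferating and no quiescent library. Of 8 keratins of the inner root sheath and companion layer of the hair follicle, no STAG group occupied any, and CTCF occupied 1, Krt28, in quiescent cells. This count covers gene ends only. In the body of Krt75, chr15:101567694-101568506 was called in all 12 libraries, at a mean fold enrichment of 18.5. At 1352 bases from Krt75, chr15:101575257-101576050 was called in all 8 STAG libraries. A site of all 12 libraries also lay 2879 bases from Krt72. Among the 7 others, Krt88 was occupied in all 6 groups, with CTCF at 45.3 and 36.3 in quiescent libraries, against 37.3 and 58.7 in proliferating ones. Krt222 was occupied by CTCF alone, at 10.3 and 13.0 in quiescent libraries, against 8.0 and 8.33 in proliferating ones, and Krt90 was occupied in 5 groups.

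Outside the family, STAG2 occupied 11 of 12 genes of proteins that link or anchor keratin filaments in quiescent cells and 12 in proliferating cells, among them Dsp (desmoplakin), Jup (plakoglobin) and Plec (plectin). The gene that differed was Pkp3, a desmosomal plakophilin. STAG2 occupied 11 of 16 genes of other intermediate filaments in quiescent cells and 10 in proliferating cells, with the nuclear lamins Lmna, Lmnb1 and Lmnb2 among them in both states. Des, the muscle filament desmin, was occupied by STAG2 in quiescent cells and not in proliferating ones. Over all protein-coding genes STAG2 occupied 54.3% in quiescent and 54.6% in proliferating cells, and neither list was tested against them.

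Although few keratin gene ends were marked, peaks were dense in the windows. STAG2 had 71.8 and 56.2 peaks per Mb in the windows in quiescent cells, and 80.2 and 79.7 in proliferating cells. In the rest of chromosomes 11 and 15 it had 25.6 and 21.8 per Mb in quiescent cells, and 30.5 and 28.1 in proliferating cells. Over the 12 libraries the windows were 2.24-fold denser than the rest of these chromosomes (log2 ratio 1.16), and denser in 12 of 12 libraries (exact two-sided sign flips over libraries, p = 0.000488, the smallest of 4096 arrangements; Benjamini-Hochberg adjusted over 7 tests, 0.00171). The windows were also richer in genes, with 49.5 protein-coding genes per Mb against 10.5 in the rest, and the part of gene density in the difference was not tested.

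**Figure D4:**
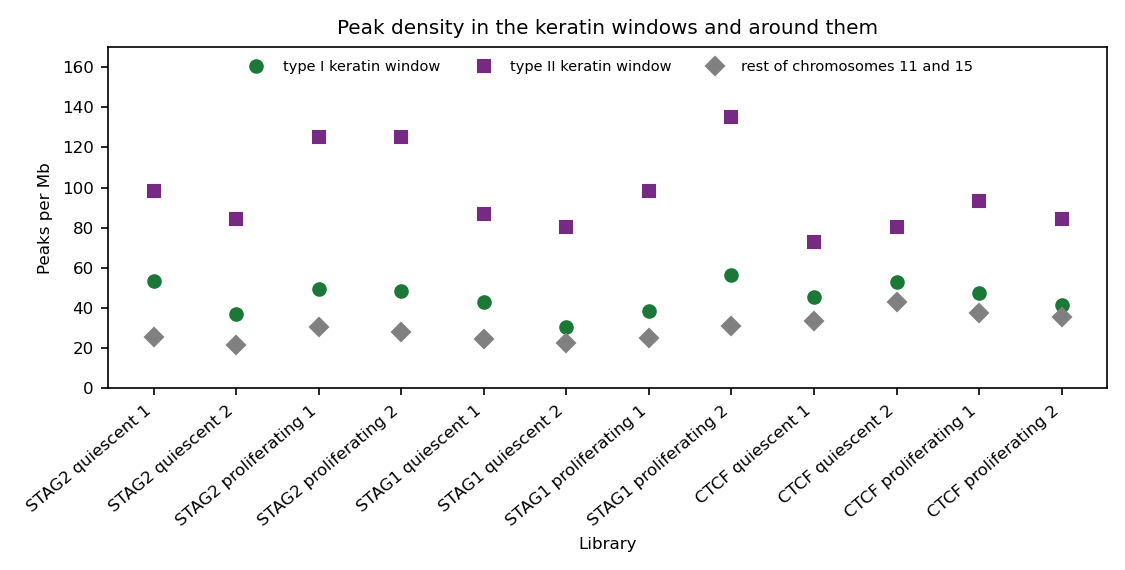
Peaks per Mb in the type I keratin window (circles), the type II keratin window (squares) and the rest of chromosomes 11 and 15 (diamonds), 1 point per library. In every library the type II window is highest and the rest is lowest; STAG2 in quiescent cells has 98.3 and 84.2 peaks per Mb in the type II window.

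The type I window was less dense than the type II window. Type I held 53.6 and 36.9 STAG2 peaks per Mb in quiescent cells and 49.2 and 48.4 in proliferating cells, against 98.3 and 84.2 in quiescent and 125 and 125 in proliferating cells for type II. The type I density was 0.470 times that of type II over the 12 libraries (log2 ratio -1.09), lower in 12 of 12 (exact sign flips, p = 0.000488, adjusted 0.00171). Protein-coding genes ran the other way, with 58.9 per Mb in the type I and 35.7 in the type II window. Of the type I window's 67 genes, 38 lay in the Krtap block. Without the block the log2 ratio of peak densities was -0.79 (exact sign flips, p = 0.000488). The part of gene density in the difference between the windows was not tested. The longest stretch without a site in the type I window was 70.9 kb over Krt23, Krt39 and Krt40. In the type II window the longest was 58.2 kb over Gm5414, followed by 43.1 kb over the inner root sheath keratins Krt72 and Krt73 and the epidermal Krt2.

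STAG lists gave a larger share of their peaks to the keratin windows than CTCF lists did. The share for STAG2 was 0.359% and 0.315% in quiescent cells, against 0.326% and 0.336% in proliferating cells. For STAG1 it was 0.329% and 0.267% in quiescent cells, against 0.311% and 0.337% in proliferating cells. For CTCF it was 0.210% and 0.171% in quiescent cells, against 0.221% and 0.205% in proliferating cells. Every STAG library exceeded every CTCF library, by 1.60-fold on average (log2 ratio 0.68; exact two-sided permutation within state, p = 0.00444, adjusted 0.0104). Every CTCF list was longer than every STAG list, with 51835 to 71757 against 34281 to 50468 peaks, so antibody and list length go together here. The counts in the windows overlapped, with 109 to 127 CTCF against 98 to 170 STAG peaks. With lists of 20000 peaks the log2 ratio of the shares was 0.24 (exact p = 0.04).

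The total keratin share did not separate quiescent from proliferating cells, with a mean log2 ratio of -0.08 over the 3 antibodies (exact two-sided permutation within antibody, p = 0.306, adjusted 0.356). With the Krtap block left out, an alternative added after the data were seen, the log2 ratio was -0.13 and the exact p was 0.0370. STAG2 and STAG1 also were not separated, with a mean log2 ratio of 0.10 (exact permutation, p = 0.389, adjusted 0.389), in a design whose smallest p is 0.0556. These tests do not show that the shares were alike.

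Within the total, the windows moved unequally between the states. The type II share was lower in quiescent cells for each antibody with no overlap, at 0.197% ± 0.0056 in quiescent against 0.211% ± 0.0055 in proliferating cells for STAG2 (SD, n = 2 each, as below). For STAG1 it was 0.181% ± 0.014 in quiescent against 0.204% ± 0.0084 in proliferating cells, and for CTCF 0.0989% ± 0.016 in quiescent against 0.123% ± 0.0051 in proliferating cells. The type I share of STAG2 was higher in quiescent cells, at 0.141% ± 0.026 against 0.12% ± 0.0016 in proliferating cells, also without overlap, while those of STAG1 and CTCF overlapped between states. The ratio of type I to type II peaks was 1.21-fold higher in quiescent cells (log2 ratio 0.27; exact permutation within antibody, p = 0.0278, adjusted 0.0389), a measure chosen after the values had been seen. It was 0.792 and 0.636 for STAG2 in quiescent cells, against 0.571 and 0.561 in proliferating cells. Without the Krtap block its log2 ratio was 0.19 (exact p = 0.0741), and with lists of 20000 peaks 0.075 (exact p = 0.630).

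Sites called in both libraries of a state and in neither of the other were counted as lost or gained in quiescence. STAG2 lost 15 of 112 keratin sites, or 13.4%, beside 10.2% over the genome, and gained 4 of 93, or 4.30%, beside 1.93%. STAG1 lost 16 of 99, or 16.2%, beside 7.75%, and gained 2 of 77, or 2.60%, beside 1.28%. CTCF lost 10 of 97, or 10.3%, beside 4.58%, and gained 6 of 92, or 6.52%, beside 7.64%. These counts are small and have no test. With lists of 20000 peaks STAG1 and CTCF each lost 1 site, and STAG2 gained 0. The lost STAG2 sites had mean fold enrichments of 4.50 to 7.15, with a median rank at the 26.3 percentile of their lists.

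Of the 15 lost STAG2 sites, 13 had no CTCF peak in any library, 11 lay in the type II window and 9 within 5 kb of a keratin gene. These positions were near the background, since 76 of the 112 sites in both proliferating STAG2 libraries lay in the type II window and 154 of all 290 window sites lay within 5 kb of a keratin gene. For CTCF, 41.6% and 44.4% of all STAG2 keratin peaks in proliferating cells matched no CTCF library of that state. The share without CTCF in any library was not counted among the 112 sites or over the genome. All 15 had a STAG1 peak in at least 1 proliferating library, as did all but 2 of the 112 sites. Of the 15, 5 were lost for STAG1 as well. The lost sites with the highest ranks lay in Krt6b (chr15:101679801-101680442), upstream of Krt5 (given above), beside Krt84 (chr15:101522678-101523169), beside Krt31 (chr11:100056170-100056707) and beside Krt88 (chr15:101455167-101455634). Others lay beside Krt6a and Krt81 and in Krt8 and Krt78. Of the 4 gained STAG2 sites, 3 lay in the Krtap block and the fourth in Krt87.

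STAG1 losses included Krt81 (chr15:101459130-101459813) and Krt6a (chr15:101694666-101695258), where STAG2 was called in all 4 libraries, and the outer end of Krt14. STAG1 gains lay outside the genes, 27327 bases from Krt80 and 32065 bases from Krt18. CTCF losses included chr15:101887116-101887611 in Krt76, a keratin of the palate, and chr11:100254156-100256134 beside Krt17, a joined site at which STAG2 was called in all 4 libraries, in the quiescent ones beyond 1 kb from the gene. CTCF gains included chr11:100006599-100007093 beside Krt33a and chr11:100217228-100217642 beyond Krt14.

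STAG2 calls without STAG1 were counted in each state. Of the sites in both quiescent STAG2 libraries, 13 of 93 had no quiescent STAG1 peak, or 14.0%, beside 7.92% over the genome. In proliferating cells 2 of 112 had none, or 1.79%, beside 6.13%. Of the 13 sites, 11 lay in the type II window, as did 60 of the 93. The 13 included those in Krt81, Krt4 and Krt87 and beside Krt6a. The reverse, STAG1 without STAG2, held for 4 of 77 in quiescent cells, or 5.19%, beside 7.41%, and for 2 of 99 in proliferating cells, or 2.02%, beside 4.82%. These counts have no test. In quiescent cells STAG2 lists held 61 and 42 peaks in the type I and 77 and 66 in the type II window, against 49 and 35 and 68 and 63 in STAG1 lists.

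STAG peaks in the keratin windows matched CTCF less often than STAG peaks elsewhere. In quiescent cells 40.6% and 49.1% of STAG2 keratin peaks matched both CTCF libraries of the state, against 63.7% and 67.7% of all other STAG2 peaks. In proliferating cells 44.8% and 41.8% of STAG2 keratin peaks matched, against 61.6% and 58.7% of the others. STAG1 keratin peaks matched in 52.1% and 58.2% of cases in quiescent cells, against 71.3% and 69.7% elsewhere, and in 54.5% and 39.4% in proliferating cells, against 72.3% and 58.5% elsewhere.

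The mean difference was -17.9 percentage points, lower in 8 of 8 STAG libraries (exact sign flips, p = 0.00781, the smallest possible, adjusted 0.0137). Libraries of a state share their CTCF lists, so these differences are not independent. With each list limited to its 20000 strongest peaks the difference turned to 4.10 points (exact p = 0.133), and with only the STAG lists so limited it was -7.92 points (exact p = 0.0156).

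**Figure D5:**
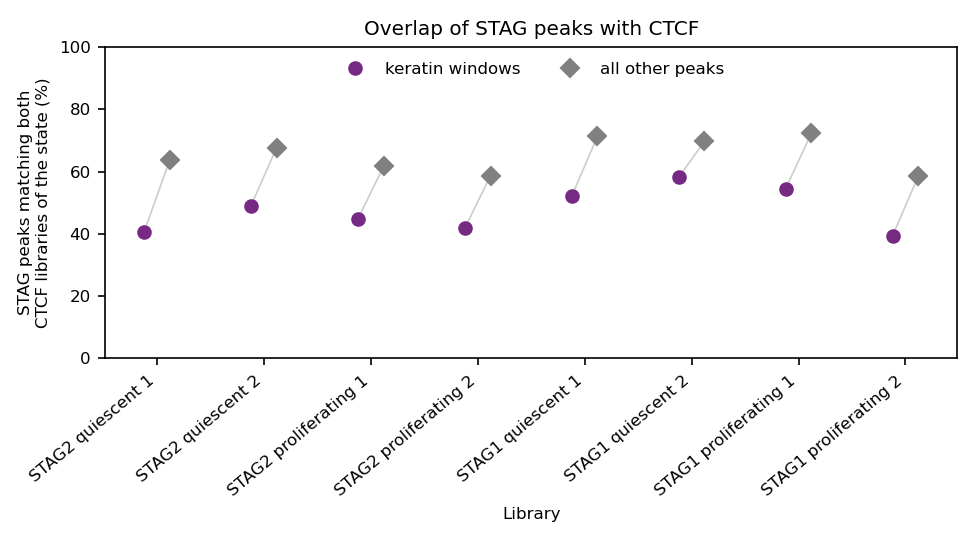
Percentage of STAG peaks that match CTCF in both libraries of their own state, for keratin window peaks (circles) and all other peaks (diamonds), 1 pair per STAG library. The circle lies below the diamond in 8 of 8 libraries, for example 40.6% against 63.7% in the first quiescent STAG2 library.

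Stable STAG2 sites without CTCF made up 14 of the 83 keratin sites called in all 4 STAG2 libraries, or 16.9%, beside 8.44% over the genome. For STAG1 they made up 8 of 66, or 12.1%, beside 3.75%. Of the 14 STAG2 sites, 11 lay in the type II window, as did 57 of the 83, and 9 lay within 5 kb of a keratin gene, as did 154 of all 290 window sites. These differences have no test. The 14 included the Krt20 promoter and sites at Krt8, Krt18, Krt6a, Krt1, Krt4 and Krt79, and their mean fold enrichments ran from 5.06 to 10.8. CTCF sites of all 4 libraries without any STAG peak were 13 of 74, or 17.6%, beside 19.4%. In the type I window they were 9 of 31, or 29.0%, against 4 of 43, or 9.30%, in the type II window, a difference that was not tested. Those of the type I window lay near Smarce1, beside Krt222, near Krt25, in the Krtap block and, 4 of them, beyond Krt42 toward Eif1. Sites of all 12 libraries lay between these 4, chr11:100297663-100298840 at a mean fold enrichment of 25.7 and chr11:100299970-100300901 at 12.6.

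Sites of all 12 libraries were 43 of 290, or 14.8%, beside 15.9% over the genome, a share near the background. Sites of 1 library were 78, or 26.9%, beside 32.9%. Sites of all 12 libraries are named in the order of their mean percentile within the lists, which differs from the order of their mean fold enrichment. In the type I window there were 14, and the first was chr11:100167920-100170360 between Krt19 and Krt9, 16420 bases from Krt9, with a mean fold enrichment of 44.6 over the libraries. It was followed by chr11:100295137-100296444 beyond Krt42 at 43.3 and by chr11:99189066-99189910 near Smarce1 at 37.1. Next came chr11:100297663-100298840, also beyond Krt42, at 25.7, and chr11:99853933-99854553 in the Krtap block at 23.9. In the type II window there were 29, beginning with chr15:101973334-101974356 within Krt78 at 57.2, chr15:102002792-102005934 at Krt8 at 52.8, chr15:101341524-101342355 and chr15:101326032-101327886 beyond Krt80 at 53.4 and 51.9, and chr15:101771825-101773292 beside Krt72 at 49.4. These sites of all 12 libraries lay at the edges of both windows and inside them. At the 43 sites the STAG2 and CTCF summits lay a median of 21.5 bp apart, against 25 bp at 2648 such sites in the rest of chromosomes 11 and 15.

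The Krtap block, chr11:99550132-99993994, lay inside the type I window and held 38 protein-coding genes and 40 sites. Its genes cover 7.83% of it, yet 29 of its 40 sites overlapped a gene. STAG2 had 27 and 12 peaks there in quiescent cells, against 12 and 13 in proliferating cells. STAG1 had 15 and 9 in quiescent cells, against 9 and 23 in proliferating cells, and CTCF had 10 and 6 in quiescent cells, against 8 and 10 in proliferating cells. The counts of the states overlapped for every antibody, and the highest STAG2 count, 27, came from 1 quiescent library. Many Krtap genes have similar copies, and how far reads were shared between copies was not measured, so the placing of these sites is uncertain.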

How the data were processed

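The labels describe crosslinked, sonicated chromatin precipitated with 25 ug of antibody. Per the submitters' processing notes, bcl2fastq, BWA, Picard, MACS2 and HOMER were used with mm10, and for their versions nothing was stated. The authors deposited 1 peak list per library, without pooling. Each deposited list gives a fold ratio over background, -log10 p- and q-values, and the summit's offset. A further sample, whose title says input and whose antibody label says IgG, was not used here, so the background of the fold ratio is not settled. The lists give no read totals, so depth and intervals that need it are unknown.

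Genes came from a RefSeq table of GRCm38.p6, without mitochondrial genes. Windows, sites, gene ends and shares were computed in Python 3.11.15 with numpy 2.4.6 and pandas 2.3.3, and figures in matplotlib 3.10.9. The tests were exact permutations or sign flips over libraries, adjusted together, and were tested on simulated data. Densities outside the windows used the span between the outermost peaks of each chromosome. Members, role lists and tests were chosen with earlier results of these data known. Genes and sites were named by rule: the 7 urothelial keratins, keratins occupied in any group, the 5 sites per window called in most libraries, and the lost and gained sites of highest rank. Of the sites within 5 kb of the 7 urothelial keratins, only part is described. Replicate numbers did not pair the states, since the deviations of same-numbered libraries correlated at -0.08 for STAG2, -0.08 for STAG1 and -0.38 for CTCF over 18250 sites. Same-numbered STAG2 and STAG1 libraries correlated at 0.19 in quiescent and 0.38 in proliferating cells, so libraries in the sign flips may not be independent. Alternatives changed the peak threshold (-log10 q of at least 5), list length (20000 peaks), flank (0 or 100 kb), overlap (50% reciprocal), gene window (2 kb, or the gene with 5 kb), and libraries.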

Additional observations from a re-analysis of the deposited data

Results flagged for a closer look

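The change in quiescence may differ between the type I and type II windows, by a measure chosen after the values had been seen, so its p is not independent evidence. The log2 ratio of type I to type II peaks was 0.27 higher in quiescent than in proliferating cells over the 3 antibodies (exact permutation within antibody, p = 0.0278, adjusted 0.0389), and this difference between the clusters' responses is what drew attention. It was 0.075 (exact p = 0.630) with lists of 20000 peaks and 0.18 (exact p = 0.139) at -log10 q of at least 5. The ratio itself was higher in quiescence without overlap for STAG2 and for CTCF, at 0.912 and 0.952 in quiescent against 0.740 and 0.712 in proliferating CTCF libraries. For STAG1 the states overlapped, at 0.721 and 0.556 in quiescent against 0.571 and 0.604 in proliferating libraries. As each library was left out in turn the exact p ranged from 0.00926 to 0.0741. It was 0.0741 without the first quiescent STAG1 library, 0.0648 without the first proliferating STAG1 library and 0.0556 without either proliferating STAG2 library.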

How the results depend on the processing

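The densities of the windows against the rest and of type I against type II, and the keratin share of STAG against CTCF, kept their direction and passed the threshold under each of their 17 alternatives, the last falling to a log2 ratio of 0.24 (exact p = 0.04) with 20000 peaks. Limiting lists to 20000 peaks turned the CTCF overlap to 4.10 points and the type I to type II log2 ratio to 0.075 (exact p = 0.630). It left 7 and 12 occupied keratins for STAG2 in quiescent and proliferating cells, and 6 in each STAG1 and CTCF group. It left 1 lost and 1 gained STAG1 site, 1 lost and 2 gained CTCF sites, and 0 gained STAG2 sites. At -log10 q of at least 5 the log2 ratio of type I to type II was 0.18 (exact p = 0.139), with 9 lost STAG1 and 5 lost CTCF sites. Without the flank STAG1 gained 0 sites. Without the Krtap block the total share was -0.13 (exact p = 0.0370), the type I to type II log2 ratio 0.19 (exact p = 0.0741), and STAG2 gained 1 site. With 2 kb around gene ends STAG1 occupied 19 in quiescent and 25 in proliferating cells and CTCF 20 in proliferating cells. With the gene and 5 kb, quiescent STAG2 occupied 29, STAG1 27 in quiescent and 29 in proliferating cells, and CTCF 28 in quiescent and 31 in proliferating cells. The share of all protein-coding genes was not computed under any alternative, so these counts of occupied keratins have no background. Leaving out 1 library leaves 1 call to decide a group, which loosens each count by construction. Lost sites then numbered 19 to 42 for STAG2, 22 to 59 for STAG1 and 12 to 25 for CTCF, gained sites 6 to 20, 4 to 14 and 10 to 16, and the type I to type II log2 ratio was 0.20 to 0.33. With a replicate block the state log2 ratio was -0.09 (exact p = 0.312) and STAG2 over STAG1 0.11 (exact p = 0.25). With the CTCF numbers crossed in that block the state log2 ratio was -0.09 (exact sign flips, p = 0.406). The causes of these shifts were not tested.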
